A study of Homo sapiens with 12 samples.

Results

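The mitochondrial ribosomal protein genes were followed in SK-N-DZ cells, a MYCN-amplified neuroblastoma line, by RNA-seq. Every gene of the count table whose symbol is MRPL or MRPS followed by a number and, in some cases, a letter from A to C was taken, which gave 78 of 43769 genes. Of these, 49 carry an MRPL symbol (large subunit) and 29 an MRPS symbol (small subunit).

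According to its methods, the study used an SK-N-DZ clone with a doxycycline-inducible hairpin against ARID1A, a subunit of the SWI/SNF chromatin remodeller, and the study asked whether loss of ARID1A changes the response to interferon gamma (IFNγ). Control cells (C) had no treatment, D cells had doxycycline for 4 days, I cells had IFNγ for 24 hours, and DI cells had both, with 3 libraries in each group. The labels give the genotype of C and I as WT and that of D and DI as shARID1A. By those methods the clone carries the hairpin with or without doxycycline and was kept under puromycin before treatment, and the labels do not name the clone. No library had doxycycline without the hairpin, so doxycycline itself, the hairpin and loss of ARID1A cannot be told apart in any comparison below.

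Mitochondria keep a ribosome of their own, descended from that of bacteria, which makes the few proteins encoded by mitochondrial DNA, all of them subunits of the respiratory chain or ATP synthase. Its rRNAs are transcribed in the mitochondrion, whereas every one of its proteins is encoded in the nucleus, made in the cytosol and imported. Tetracyclines such as doxycycline bind the small subunit of bacterial ribosomes and also slow translation in mitochondria.

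By position in the ribosome, 30 members are large subunit proteins with a bacterial counterpart and 21 are large subunit proteins found only in mitochondria, a set that takes in MRPS18A and MRPS30 despite their symbols. Another 16 are small subunit proteins with a bacterial counterpart and 10 are small subunit proteins found only in mitochondria. MRPS36 is the remaining gene, and its product belongs mainly to the 2-oxoglutarate dehydrogenase complex.

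Promoter sequences from RefSeq (GRCh38.p14, 250 bases before to 50 after the start of transcription) were matched for 69 of the 78 genes. The stretches below run from 45 bases before to 25 after the start, 5′ to 3′ on the strand of the gene. They are shown for MRPL38 and MRPS18A, the members called with doxycycline in the main model, although neither call held under every setting below. They are also shown for MRPS34, the member with the highest level, and for MRPL44, which differed with doxycycline in some of the models. Capitals mark the letters CCGGAAG, read on either strand, which ETS factors bind, and AAGATGGCG, which YY1 binds.
MRPL38, chr17:75904860-75904929, minus strand: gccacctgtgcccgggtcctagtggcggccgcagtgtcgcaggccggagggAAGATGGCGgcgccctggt
MRPS18A, chr6:43687767-43687836, minus strand: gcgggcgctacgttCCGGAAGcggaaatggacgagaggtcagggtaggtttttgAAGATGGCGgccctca
MRPS34, chr16:1773110-1773179, minus strand: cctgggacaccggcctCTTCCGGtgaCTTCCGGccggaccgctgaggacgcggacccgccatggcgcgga
MRPL44, chr2:223957418-223957487, plus strand: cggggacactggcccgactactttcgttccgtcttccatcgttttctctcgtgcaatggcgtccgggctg

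In the full 300 bases, the ETS letters were held by 29 of 69 members (42%), against 18.3% of the 11951 tested genes with a matched promoter. The YY1 letters were held by 13 members (18.8%) against 3.65% of those genes. Other letters searched on both strands were less frequent. CACGTG, the E-box that MYC proteins bind, was held by 6 members (8.7%) against 9.82% of genes, GCGCATGCG, a form of the NRF1 motif, by 3 members (4.35%) against 3.6%, and TGATGCAA, a form of the ATF4 motif, by 0 members against 0.46%. The ETS and YY1 letters can overlap at AAG, but did so in 0 of the 4 members that held both. Both families of genes held them, with ETS letters in 17 of 42 MRPL and 12 of 27 MRPS promoters and YY1 letters in 8 and 5. A match in these letters describes the sequence and is not a measured binding site.

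Counts per library ran from 16469832 to 21790869, and 15828 genes passed the filter on low counts and were tested. Levels are in CPM, the counts of a gene over the TMM-scaled size of its library, scaled to 1e6. ARID1A mRNA was at 165 to 197 CPM in the C libraries and 158 to 197 CPM after doxycycline, which overlap. Under IFNγ it was at 192 to 202 CPM, and at 133 to 151 CPM with both, which do not overlap. Its log2 fold change with doxycycline, averaged over both IFNγ states, was −0.27 (SE 0.08, edgeR adjusted p = 0.0606, and 0.00858 when blocked on replicate number), and the groups are named here by their labels. All 9 neuroblastoma markers were tested, with MYCN at 772 to 1495 CPM, whereas TH varied from 0.694 to 74.7 CPM, going from 47.3 to 1.33 and from 74.7 to 0.694 CPM between C and D in replicates 1 and 3 and from 3.13 to 7.03 CPM in replicate 2. Summed, the neuroblastoma markers were highest in replicate 3 of every group (5451, 5071, 5579 and 5512 CPM in C, D, I and DI). The 5 fibroblast markers summed to 12.3 to 65.8 CPM, highest in replicate 2 of every group (54.1, 44.4, 65.8 and 46.2 CPM). PDGFRA made up much of that sum (43.3, 33.0, 39.4 and 33.0 CPM in those libraries), whereas LUM was highest in replicate 1 of every group. The part of these replicate differences in the results was not tested. The immune markers summed to at most 1.13 CPM, and CD3E, a part of the T cell receptor complex, was at 0 counts in every library. The labels do not say that replicates came from separate cultures, so the errors below measure the spread between these libraries, which may be technical. In bulk RNA, fewer cells of a kind and less RNA per cell cannot be told apart.

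Mitochondrial ribosomal protein mRNAs were present at moderate and unequal levels, and together took 0.344 to 0.422% of the counts of a library. Levels between genes are given per length, as CPM per kb of exonic length in GENCODE release 29. On that scale the median member was at 16.3, and 56 of 78 members were at 10 or more. Medians by position were close together, at 16.8 for large subunit proteins with a bacterial counterpart, 16.4 for those found only in mitochondria, 13.2 for small subunit proteins with a bacterial counterpart and 17.7 for those found only in mitochondria. These values describe mRNA, and the proteins themselves are held in the ribosome in fixed numbers.

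The highest level per length was that of MRPS34, a small subunit protein needed for stable 12S rRNA, at 118 ± 15.5 CPM per kb (SD over 12 libraries, range 93.1 to 149). MRPL15 followed at 69.2 ± 10.5 (49.6 to 83.7) and MRPS21 at 60.9 ± 7.95 (48.4 to 73.4). MRPS34 lay above the range of the next gene in every library, whereas the ranges of MRPL15 and MRPS21 overlapped. Among tested members the low end held MRPL38 at 0.771 ± 0.320 (0.343 to 1.20), MRPL46 at 1.17 ± 0.247 (0.830 to 1.54) and MRPS18C at 2.59 ± 0.271 (2.30 to 3.23), all well below the median.

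**Figure D1:**
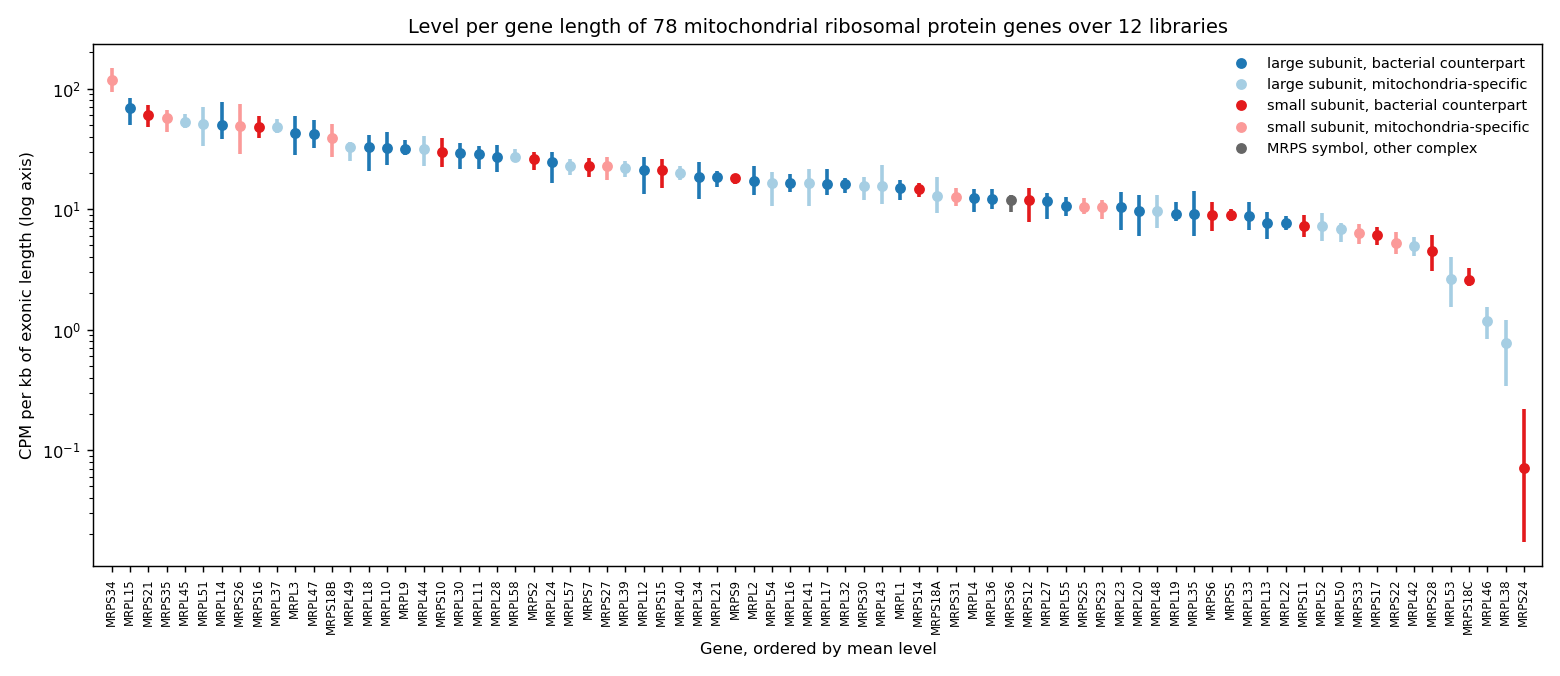
Level of each of the 78 genes in CPM per kb of exonic length on a log axis, ordered by mean, with a point for the mean of 12 libraries and a line from the lowest to the highest library, coloured by position in the ribosome. MRPS34 stands highest at 118 and MRPS24 lowest at 0.0714, and all positions are spread along the order.

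MRPS24, a small subunit protein with a bacterial counterpart, had only 1 to 12 counts in each library. It was the single member that did not pass the filter on low counts, and it was not tested. In GENCODE 23.2% of its exonic length lies in the read-through gene URGCP-MRPS24, and how such shared reads were counted is not given in the sources used here. Same-strand overlap with another gene was above 25% of exonic length in 5 other members, at 68.2% for MRPL12, 45.2% for MRPL53, 37.5% for MRPL38, 35.8% for MRPS28 and 27.0% for MRPS17, so the levels of these genes are uncertain. On the opposite strand, RSPH9 covers 47.0% of MRPS18A and NR2C2 covers 22.2% of MRPS25. Likewise ABRAXAS1 covers 40.2% of MRPS18C, SEMA4G and TWNK cover 36.9% of MRPL43, and NCAPD2 covers 31.3% of MRPL51, and without strand their reads cannot be told apart. Of the 78 genes, 75 had at least 100 counts in every library.

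The paralogs of bacterial S18 differed in level. MRPS18B had 39.1 ± 8.06 CPM per kb, MRPS18A 12.9 ± 2.88 and MRPS18C 2.59 ± 0.271 (SD over 12 libraries), and the ranges of the 3 genes (27.1 to 51.1, 9.34 to 18.6 and 2.30 to 3.23) did not overlap. MRPS18C is the S18 protein of the small subunit proper, MRPS18B is a second small subunit protein, and MRPS18A sits in the large subunit. MRPS36 was at 11.9 ± 1.02, near the small subunit genes with a bacterial counterpart.

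Summed over the 78 genes, the level was 4142, 4058 and 4297 CPM in C replicates 1 to 3 and 4056, 3567 and 4061 CPM in those of D. The I libraries had 4085, 3598 and 4027 CPM, and the DI libraries 4080, 3367 and 3812 CPM. The groups overlapped, and the replicate numbered 2 was the lowest in each of the 4 groups. Between same-numbered libraries, the sum was lower with doxycycline in 6 of 6 pairs, although only from 4085 to 4080 CPM in 1 of them. It was lower in I than in C in 3 of 3 and lower in DI than in D in 2 of 3. TMM factors were 1.01 to 1.06 with doxycycline and 0.951 to 1.00 without it. The 6 of 6 therefore holds on the TMM scale and not by library size alone, and no share of all genes stands beside these pair counts. Of 77 tested members, 31 were lowest in replicate 2 within C, 52 within D, 44 within I and 59 within DI. The same counts over all genes are not given here, so these are not read as particular to the members. Sums of cytosolic ribosomal proteins and of nuclear-encoded respiratory chain subunits were also lowest in replicate 2 of every group, whereas the sum of mitochondrially encoded mRNAs was lowest in replicate 3 of every group. The part of these replicate differences in each comparison was not tested beyond the replicate block described below.

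Sums of MRPL and of MRPS genes were each lowest in replicate 2 of every group. The ratio of summed MRPL to summed MRPS CPM was 1.37, 1.43 and 1.5 in C replicates 1 to 3 and 1.37, 1.38 and 1.47 in those of D. The I libraries had 1.39, 1.38 and 1.47, and the DI libraries 1.35, 1.37 and 1.44. In every group the ratio was highest in replicate 3, and the groups overlapped. With MRPS18A and MRPS30 counted in the large subunit and MRPS36 left out, the ratio ran from 1.54 to 1.68. Within groups the SD of a member was 0.20 on the log2 scale at the median, from 0.07 for MRPS25 to 0.46 for MRPL35. After the mean of each replicate number was also removed, the median SD was 0.12, and 69 of 77 members had a smaller SD than before. For all 15828 genes the same medians were 0.26 and 0.17, and 13240 of them had a smaller SD than before.

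**Figure D2:**
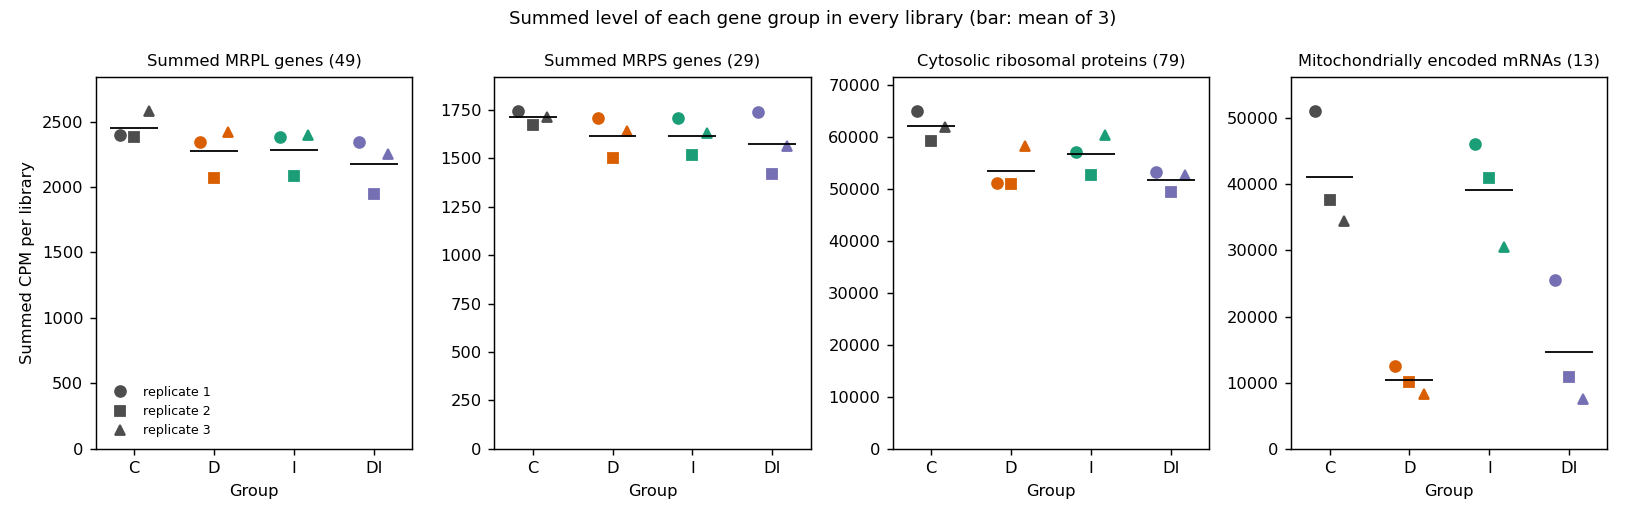
Summed CPM in every library for the MRPL genes, the MRPS genes, cytosolic ribosomal proteins and mitochondrially encoded mRNAs, by group, with a symbol for each replicate number, a bar at the mean of 3 and axes that start at 0. The mitochondrial ribosomal sums of the 4 groups overlap and are lowest in replicate 2, whereas mitochondrially encoded mRNAs are at 7529 to 25584 CPM with doxycycline and 30526 to 51108 CPM without it.

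The first question was whether induction of the hairpin by doxycycline changed these genes without IFNγ. In D vs C, 0 of 77 tested members passed an adjusted p of 0.05 in edgeR, where 1.23% of all genes did. At an unadjusted p under 0.05 there were 3 members (3.9%), against 14.2% of all genes, and DESeq2's Wald test also called 0, with 4 at an unadjusted p under 0.05. The shares of all genes under DESeq2 are not given here, so its counts of members, here and below, have no background beside them. Members shifted little as a group, with a median log2 fold change of −0.10 (−0.10 for MRPL and −0.05 for MRPS) and 56 of 77 values below 0, where all genes had a median of 0.00 with 7936 of 15828 below 0. The members' median in single libraries had an SD of 0.13 between replicates of a group. That SD leaves replicate numbers out and is not the error of this shift. By library, the members' median deviation from the mean of C was −0.02, −0.03 and 0.09 in C replicates 1 to 3. In those of D it was −0.01, −0.29 and −0.04. Scaled by library size alone, the median of all genes was 0.08 and that of the members −0.01, with 39 of 77 below 0. With the 4 libraries numbered 2 left out, the members' median was −0.04 beside an all-gene median of −0.02.

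Same-numbered libraries varied together, and once the replicate number entered the model as a block, 11 members were lower and 0 higher in D vs C (14.3% lower, against 7.67% of all genes lower and 6.23% higher). These were MRPL2, MRPL28, MRPL34, MRPL43, MRPL44, MRPL48, MRPS12, MRPS18A, MRPS18B, MRPS26 and MRPS34. MRPS26, a small subunit protein found only in mitochondria, was at 68.6, 50.5 and 84.3 CPM in C and 48.5, 32.6 and 59.8 CPM in D. Each D library of MRPS26 was below the C library of its number although the groups overlapped, and its log2 fold change was −0.53 (SE 0.29, edgeR adjusted p = 0.461). With the block it was −0.54 (SE 0.07, adjusted p = 0.00117), where the alternatives ranged from 0.00117 to 0.816.

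The same doxycycline comparison was made under IFNγ. In DI vs I edgeR called 0 of 77 members, where 0.670% of all genes were called, and 5 members (6.49%) had an unadjusted p under 0.05, against 12.2% of all genes. DESeq2 called 1 member, MRPL38, with no share of all genes beside it. The members' median was −0.04, with 48 of 77 below 0 and an all-gene median of −0.01, and with library size alone it turned to 0.05 beside an all-gene median of 0.09. The block model called 1 member higher (MRPL38) and 4 lower (MRPL43, MRPL44, MRPS12 and MRPS18B), or 1.30% against 3.85% of all genes higher and 5.19% against 6.62% lower. The 4 lower members were also among the 11 of D vs C in that model.

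Averaged over both IFNγ states, which sets 6 doxycycline libraries against 6 without it, 1 member rose and 1 fell in edgeR. That is 1.30% of members in each direction, against 3.66% of all genes higher and 4.02% lower. At an unadjusted p under 0.05 there were 11 members (14.3%), against 23.4% of all genes. The median was −0.07, with 52 of 77 below 0, and 0.02 with library size alone, where the all-gene median was 0.09. The block model called 2 members higher (MRPL38 and MRPS6) and 13 lower, or 2.60% against 13.3% of all genes and 16.9% against 15.8%. The 13 were the 11 of D vs C together with MRPL14 and MRPL39.

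**Figure D3:**
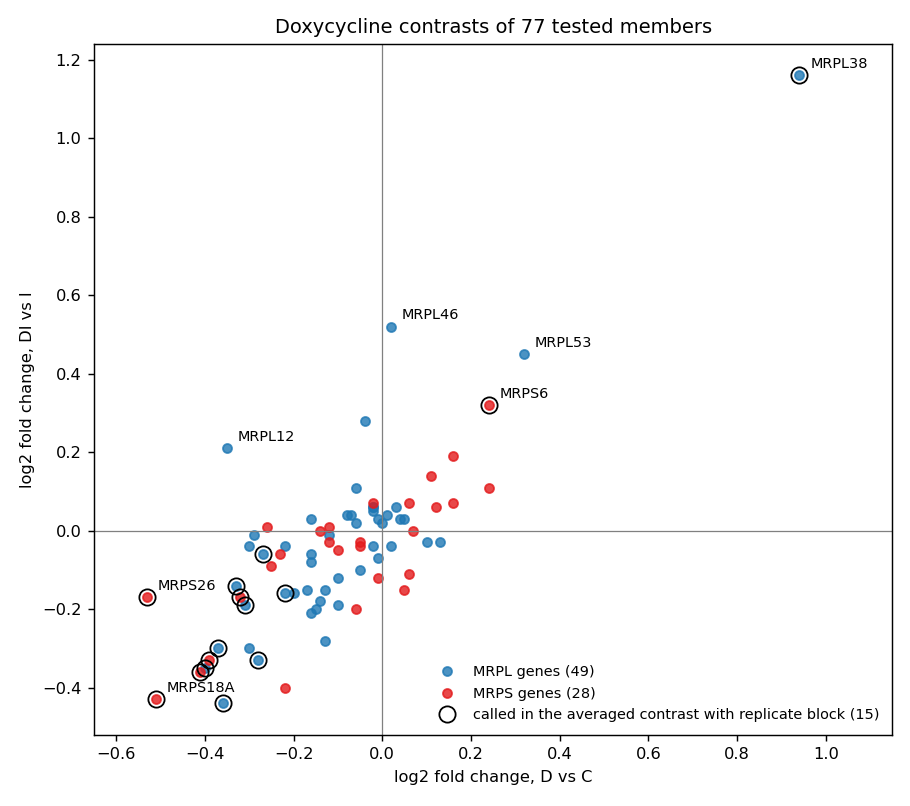
Log2 fold change of each of the 77 tested members in D vs C (x axis) and in DI vs I (y axis), MRPL genes in blue and MRPS genes in red, with a ring around the 15 members called for the averaged doxycycline effect with a replicate block. MRPL38 stands apart at 0.94 and 1.16, and most other members lie between −0.5 and 0.3 on both axes.

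MRPL38, a large subunit protein found only in mitochondria, rose with doxycycline. It lies on the minus strand of chromosome 17, from 75898643 to 75905413 (GRCh38), and its promoter stretch above holds the YY1 letters just after the start. MRPL38 was at 2.15, 1.44 and 1.81 CPM in C and 2.62, 4.14 and 3.59 CPM in D. With IFNγ it was at 2.67, 1.69 and 1.26 CPM in I and 4.41, 4.0 and 4.14 CPM in DI. Every D library was above every C library and every DI library above every I library, although I replicate 1 was slightly above D replicate 1. The log2 fold change of MRPL38 averaged over IFNγ was 1.05 (SE 0.23, edgeR adjusted p = 0.0207, exact two-sided permutation p = 0.00433 over 6 against 6 libraries). Here and for MRPS18A below, the gene was picked from these same libraries, so the permutation p is no separate support. It was 0.94 without IFNγ (SE 0.32, adjusted p = 0.211) and 1.16 under IFNγ (SE 0.32, adjusted p = 0.157), where the adjusted p with the block was 0.0340 and the alternatives ranged from 0.0279 to 0.431. MRPL38 had only 24 to 92 counts in a library, and 37.5% of its exonic length overlaps AC087289.3 on the same strand. Its averaged call was lost without C replicate 3 (adjusted p = 0.0509), without I replicate 2 (0.0507) and without all 4 libraries numbered 2 (log2 fold change 0.88, adjusted p = 0.117), the last chosen after the data were seen.

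MRPS18A, the S18 paralog of the large subunit, fell with doxycycline. It was at 17.3, 15.8 and 22.4 CPM in C and 14.5, 12 and 12.4 CPM in D. The I libraries had 18.3, 18.0 and 23.8 CPM and the DI libraries 15.1, 12.9 and 16.5 CPM. Within each IFNγ state the doxycycline libraries were all below the others. Averaged over IFNγ the log2 fold change of MRPS18A was −0.47 (SE 0.13, edgeR adjusted p = 0.0455, exact two-sided permutation p = 0.00433), with −0.51 without IFNγ (D vs C, adjusted p = 0.219, and 0.0299 with the block over alternatives from 0.0299 to 0.576) and −0.43 under IFNγ (adjusted p = 0.354). This call was narrow: it held without C replicate 2 (adjusted p = 0.0487), and leaving out any other single library gave an adjusted p between 0.0637 and 0.109. It was also lost with library size alone (0.0707) and with no filter on low counts (0.0914). Its gene overlaps RSPH9 on the other strand, as given above, and lies on chromosome 6 from 43671303 to 43687791.

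The other S18 paralogs were not called in edgeR. MRPS18B was at 96.6, 69.4 and 95.2 CPM in C and 67.8, 55.3 and 73.9 CPM in D. The I libraries had 83.8, 64.1 and 92.4 CPM and the DI libraries 62.9, 51.1 and 73.1 CPM. Each doxycycline library was below its same-numbered partner, while the groups overlapped. The averaged log2 fold change of MRPS18B was −0.38 (SE 0.13, edgeR adjusted p = 0.110), and −0.38 with the block (SE 0.05, adjusted p = 4.03e-04), where the alternatives ranged from 0.000403 to 0.23 and leaving out the 4 libraries numbered 2 also gave a call. MRPS18C, in contrast, had an averaged value of 0.09 (SE 0.11, adjusted p = 0.672). Whether the paralogs differ from each other in their response was not tested.

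**Figure D4:**
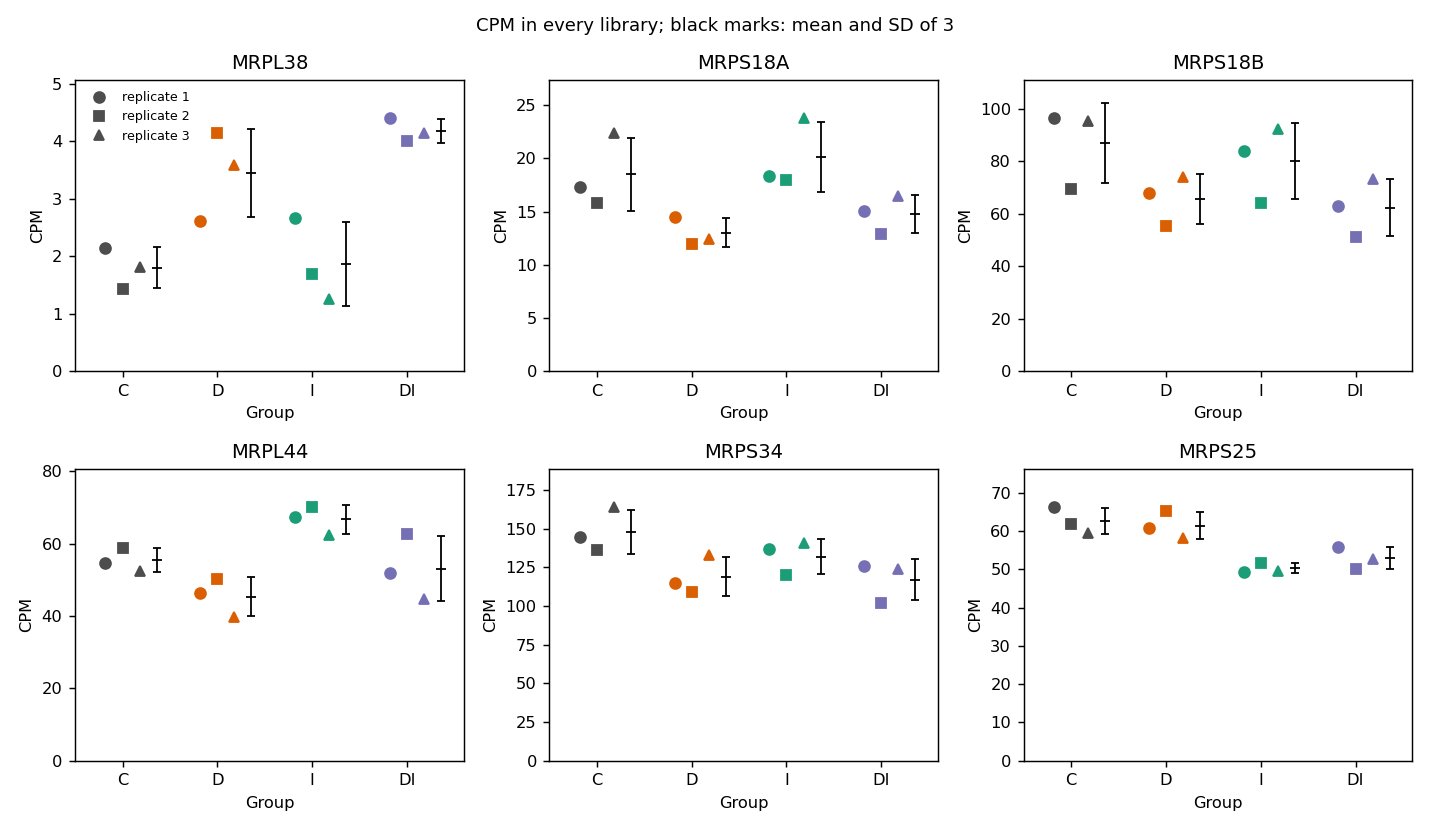
CPM of MRPL38, MRPS18A, MRPS18B, MRPL44, MRPS34 and MRPS25 in every library, by group, with a symbol for each replicate number, black marks for mean and SD of 3, and axes that start at 0. MRPL38 is at 2.62 to 4.41 CPM with doxycycline and 1.26 to 2.67 without it, and MRPS25 is at 49.3 to 55.7 CPM with IFNγ and 58.1 to 66.2 without it.

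MRPL44 and MRPS34 showed smaller differences. MRPL44, a large subunit protein with a ribonuclease III fold, was at 54.7, 58.9 and 52.4 CPM in C and 46.5, 50.2 and 39.6 CPM in D. The I libraries had 67.4, 70.1 and 62.4 CPM and the DI libraries 51.9, 62.7 and 44.6 CPM. It was lower with doxycycline and higher with IFNγ in every same-numbered pair. The averaged doxycycline value was −0.31 (SE 0.09, edgeR adjusted p = 0.0774), which passed with the block (adjusted p = 0.0024), in DESeq2 (0.0383) and with 1 library left out (0.0274), over alternatives from 0.0024 to 0.193. MRPS34 was at 145, 136 and 164 CPM in C and 115, 109 and 133 CPM in D. The I libraries had 137, 120 and 141 CPM and the DI libraries 126, 102 and 124 CPM. D lay wholly below C in MRPS34 while DI overlapped I, with a log2 fold change of −0.32 in D vs C (SE 0.12, adjusted p = 0.266, and 0.013 with the block over alternatives from 0.013 to 0.609). MRPS34 had an averaged value of −0.24 (SE 0.09, adjusted p = 0.112, and 0.00386 with the block over alternatives from 0.00386 to 0.262).

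Among small subunit proteins with a bacterial counterpart, MRPS12 carries part of the decoding centre. MRPS12 was at 31.7, 25.1 and 32.0 CPM in C and 24.3, 19.9 and 23.3 CPM in D, and at 29.9, 21.0 and 30.6 CPM in I and 24.6, 16.8 and 23.4 CPM in DI. It was lower in every same-numbered pair, with an averaged value of −0.36 (SE 0.14, edgeR adjusted p = 0.130). MRPS6, of the same class, had the opposite sign at 0.28 (SE 0.11, adjusted p = 0.158), with 32.3 to 40.9 CPM in C against 35.6 to 49.4 CPM in D. MRPS6 and MRPS12 passed only in the block model (adjusted p = 0.0247 and 0.00281), apart from MRPS12 also passing with the 4 libraries numbered 2 left out. Their alternatives ranged from 0.0247 to 0.294 and from 0.00281 to 0.257.

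By position in the ribosome, the averaged doxycycline medians were −0.07 for large subunit proteins with a bacterial counterpart (21 of 30 below 0) and −0.11 for those found only in mitochondria (13 of 21). They were −0.05 for small subunit proteins with a bacterial counterpart (9 of 15) and −0.13 for those found only in mitochondria (8 of 10). The edgeR calls in the averaged comparison, MRPL38 (higher) and MRPS18A (lower), are both classed here as large subunit proteins found only in mitochondria. MRPS18A is in this class although it is a paralog of bacterial S18. That is 1 higher and 1 lower of 21 members (9.52% called), against 3.66% of all genes higher and 4.02% lower. The calls have opposite signs and neither held under every setting, so no pattern by class is read from them. With the block, 5 of 21 large subunit proteins found only in mitochondria were lower, where 15.8% of all genes were lower. The other classes had 4 of 30, 1 of 15 and 3 of 10 lower, in the same order. MRPS36 had a value of −0.14 (SE 0.09, adjusted p = 0.354). Of the other members with the smallest p, MRPS31 had 0.16 in D vs C (adjusted p = 0.653), MRPS5 had an averaged value of 0.12 (0.298), and MRPL46 and MRPL55 had 0.52 and −0.28 in DI vs I (0.401 and 0.398). Scaled by library size alone the medians of the 4 classes were 0.02, −0.02, 0.04 and −0.04, beside an all-gene median of 0.09. All 4 classes were below the all-gene median in both scalings, where it was 0.00 in the main one.

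The next question was how IFNγ affected these genes. In I vs C edgeR called 0 of 77 members, where 2.21% of all genes were called, and 1 member (1.30%) had an unadjusted p under 0.05, against 8.0%. The median was −0.08, with 58 of 77 below 0 (40 of 49 MRPL and 18 of 28 MRPS), and −0.12 with library size alone, where the all-gene medians were −0.01 and −0.05. With the 4 libraries numbered 2 left out the members' median was −0.03, beside an all-gene median of −0.01. In DI vs D edgeR also called 0 of 77 members, where 1.72% of all genes were called, with 2 members (2.60%) at an unadjusted p under 0.05, against 6.24%. The members' median there was −0.04, beside an all-gene median of −0.01. DESeq2 called 1 member in I vs C (MRPS25) and 0 in DI vs D, with no share of all genes beside these counts. The block model called 3 lower in I vs C (MRPL51, MRPS25 and MRPS26) and 0 higher, or 3.9% against 1.14% of all genes lower and 4.88% higher. In DI vs D it called 0, where 4.46% of all genes were called, with 7 members (9.09%) at an unadjusted p under 0.05, against 14.4% of all genes.

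MRPS25, a small subunit protein found only in mitochondria, had the smallest p in both IFNγ comparisons. It was at 66.2, 61.8 and 59.5 CPM in C and 49.3, 51.7 and 49.5 CPM in I. With doxycycline it was at 60.8, 65.3 and 58.1 CPM in D and 55.7, 50 and 52.7 CPM in DI. All 6 IFNγ libraries were below all 6 without it. The log2 fold change of MRPS25 was −0.32 (SE 0.09, edgeR adjusted p = 0.133) in I vs C and −0.22 (SE 0.09, adjusted p = 0.616) in DI vs D. For I vs C it was called with the block (adjusted p = 0.0304) and by DESeq2 (0.0416), over alternatives from 0.0304 to 0.48. The exact permutation p was 0.1 in each, the smallest that 3 against 3 can give. MRPS25 was picked from these same libraries, so neither that p nor the separation of its libraries is separate support.

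The other members with the smallest p in the IFNγ comparisons did not pass. In I vs C, MRPL1 had −0.28 (SE 0.14, edgeR adjusted p = 0.710) and MRPL21 −0.24 (SE 0.12, 0.732), both large subunit proteins with a bacterial counterpart. MRPL44 had 0.27 (SE 0.13, 0.721), MRPS10 had 0.20 (SE 0.23, 1.000) and MRPL16 had 0.09 (SE 0.12, 1.000). In DI vs D, MRPS33 had 0.28 (SE 0.12, 0.760) and MRPL52 and MRPL15 had −0.31 and −0.25 (SE 0.17 and 0.15, both 1.000). MRPL51 was at 92.6, 77.9 and 110 CPM in C and 81.5, 51.8 and 82.5 CPM in I, lower in each pair, and it passed only with the block (−0.39, SE 0.10, adjusted p = 0.0474, against −0.37 and 0.927 without it).

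The interaction asks whether the IFNγ response differed with doxycycline. EdgeR called 0 of 77 members and 0 of all genes (0%), with 0 members at an unadjusted p under 0.05 against 0.625% of all genes, and DESeq2 also called 0 members. The block model, fitted within each doxycycline arm, called 0 members against 0.0253% of all genes, with 6 members (7.79%) at an unadjusted p under 0.05, against 5.22% of all genes. The members' median was 0.05, with 26 of 77 below 0, where all genes had a median of −0.01 with 8132 of 15828 below 0. Values with the smallest p were 0.32 for MRPL1 (SE 0.20), 0.27 for MRPS33 (SE 0.18) and 0.51 for MRPL46 (SE 0.33), and on the lower side −0.19 for MRPS17, −0.15 for MRPL55 and −0.14 for MRPL57, and each adjusted p was 1.000. A response that differs with doxycycline was not detectable for any member at this depth and replication.

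Genes that work with the mitochondrial ribosome were set beside its proteins. The 5 ribosomal proteins with other symbols, which include the GTP-binding DAP3, had a median of −0.11 in the averaged doxycycline comparison, with 5 of 5 below 0 and 0 called. Of 27 assembly factors 1 was higher and 1 lower, where 3.66% of all genes were higher and 4.02% lower. MTG1, a GTPase of large subunit assembly, rose from 7.19, 7.99 and 8.84 CPM in C to 11.2, 14.4 and 13.7 CPM in D, and from 9.44, 7.79 and 9.16 CPM in I to 15.7, 14.0 and 15.7 CPM in DI (averaged log2 fold change 0.74, SE 0.11, edgeR adjusted p = 0.00379). NSUN4, which methylates 12S rRNA, fell by 0.39 on the log2 scale (SE 0.10, adjusted p = 0.0357). Of 16 translation factors 1 was lower, the elongation factor TUFM, at −0.24 (SE 0.06, adjusted p = 0.0315), with CPM of 319 to 336 in C and 261 to 286 in D. The assembly and translation factors had medians of −0.03 and 0.01.

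The rRNAs of the mitochondrial ribosome were not called. MT-RNR1 (12S) had an averaged value of 0.31 (SE 0.20, edgeR adjusted p = 0.403) and MT-RNR2 (16S) −0.46 (SE 0.18, adjusted p = 0.152). MT-RNR2 ran from 10138 to 16898 CPM in C and from 7847 to 10139 CPM in D, and such levels can depend on how the libraries were depleted of rRNA or selected for mRNA, which is not given in the sources used here.

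The mRNAs that this ribosome translates behaved otherwise. Of the 13 mitochondrially encoded mRNAs, 10 fell with doxycycline in the averaged comparison and 0 rose (edgeR), with a median of −1.64 and 13 of 13 below 0. Summed, they were at 51108, 37675 and 34411 CPM in C and 12588, 10167 and 8237 CPM in D. The I libraries had 46059, 40922 and 30526 CPM and the DI libraries 25584, 10922 and 7529 CPM. All 6 doxycycline libraries were below all 6 others, whereas the sums of the 78 ribosomal genes overlapped. On the TMM scale, though not by library size alone, those ribosomal sums were lower with doxycycline in every same-numbered pair. MT-ND6 had −2.38 (SE 0.19, adjusted p = 1.13e-04) and MT-CO1 −1.97 (SE 0.26, adjusted p = 0.00215), and MT-ND2, MT-ATP6 and MT-ATP8 did not pass, at −0.89, −0.85 and −0.79. The difference between the lists was not tested.

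Other nuclear genes of ribosomes and the respiratory chain lay between. Of 79 cytosolic ribosomal proteins 12 fell and 0 rose in the averaged comparison (median −0.14, 67 of 79 below 0), and of 60 nuclear-encoded respiratory chain subunits 5 fell and 0 rose (median −0.14, 49 of 60 below 0). These are 15.2% and 8.33% of the lists, where 4.02% of all genes were lower. With the block 36 and 21 were lower, with 0 and 2 higher, where 15.8% of all genes were lower and 13.3% higher. In I vs C the medians were −0.13 for cytosolic ribosomal proteins (77 of 79 below 0, 1 called lower) and −0.09 for respiratory chain subunits (48 of 60, 0 called), beside −0.08 for the mitochondrial ribosomal proteins. The comparisons share the C libraries, so these values stand side by side only.

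**Figure D5:**
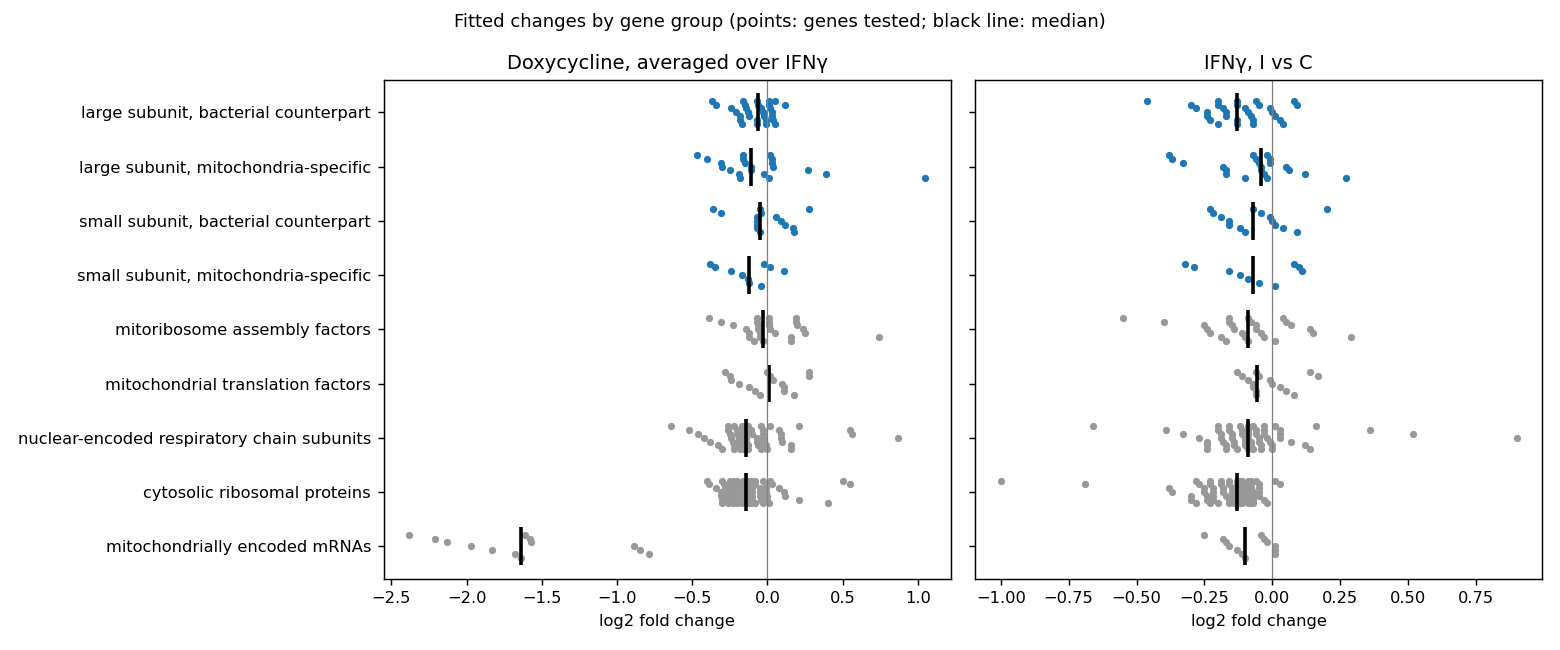
Log2 fold change of every tested gene (points) and the median (black line) of each gene group, for doxycycline averaged over IFNγ (left) and for I vs C (right), with mitochondrial ribosomal proteins by position in blue and other groups in grey. With doxycycline the mitochondrially encoded mRNAs have a median of −1.64, and the 4 classes of mitochondrial ribosomal proteins have medians from −0.13 to −0.05.

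The ETS letters were set beside the calls of the block model as a description. They were held by 7 of 12 members that were lower in the averaged doxycycline comparison and had a matched promoter, and by 22 of 57 other members. The YY1 letters were held by 2 and 11 of the same members.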

How the data were processed

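RNA of 12 SK-N-DZ libraries was sequenced on an Illumina instrument with paired 150-base reads. The authors deposited raw counts per gene, and the aligner, counter and strand setting are not given in the sources used here. The submitters' processing notes name DESeq2. Deposited columns of fold changes and p-values from the authors' own comparisons were not used, nor were 18 per-library columns whose names the labels do not explain. Groups came from the sample titles. GENCODE release 29 held each of the 43769 identifiers.

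Counts were scaled by TMM, filtered with filterByExpr (minimum count 10) and tested with edgeR 4.0.16 (limma 3.58.1, R 4.3.3), by a two-sided quasi-likelihood F-test in one model of 4 groups. P-values were BH adjusted over 15828 genes and called under 0.05. Standard errors were taken from the fold change and its F statistic. CPM values of single genes were compared with exact two-sided permutation tests (SciPy 1.17.1, Python 3.11.15), whose smallest p is 0.1 for 3 against 3 and 0.00216 for 6 against 6. These tests are not adjusted over genes and take no account of replicate number, nor of IFNγ state in the averaged comparison. The SD within groups was computed on log2(CPM + 0.5). Depth was 16469832 to 21790869 counts per library, at which 3 counts equal 0.135 to 0.187 CPM. Errors cover counting and replicate spread only.

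Replicates differed by more than counting noise, with a chi-square per gene of 18.6 to 82.2. Libraries with the same number correlated at 0.338 to 0.804 after group means were removed (18 pairs), against −0.628 to 0.143 for differing numbers (36 pairs). What the numbers mark is not stated in the labels. Main values carry no block, since the study states none, and values blocked on replicate number are given beside some of them.

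Alternatives were DESeq2's size factors, library size alone, no filter on low counts, DESeq2 1.42.0 (Wald test), the block, the compared groups alone, an adjusted p under 0.01, and each library left out. Leaving out the 4 libraries numbered 2 together was added after the data were seen. The code was tested on simulated data. Genes named in each comparison were those called, up to 8 per direction, or else the 3 with the smallest p in each direction, plus the 3 highest and 3 lowest levels per length, the S18 paralogs, MRPS36 and untested members. Members called only with the block, genes with extreme values in other lists and the promoter letters were chosen after values were seen. Members, lists and comparisons were chosen with earlier results of these data known. Lists are described by counts and medians, with no set test.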

Additional observations from a re-analysis of the deposited data

How the results depend on the processing

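The replicate block changed more calls than any other setting tried. With it, members called lower numbered 11 in D vs C, 4 in DI vs I, 13 in the averaged doxycycline comparison and 3 in I vs C, and members called higher numbered 1 in DI vs I and 2 in the averaged comparison. It changed 0 calls among members in DI vs D and in the interaction. DESeq2's Wald test gave 1 higher in DI vs I, 2 lower in the averaged comparison and 1 lower in I vs C, with no share of all genes beside these counts. For the averaged comparison, an adjusted p under 0.01 left 0 higher and 0 lower, and library size alone and no filter on low counts each left 0 lower. With the 4 libraries numbered 2 left out it had 2 lower (MRPS12 and MRPS18B) and 1 higher, which was MRPS16 and not MRPL38. Leaving out single libraries gave between 0 and 1 members higher and between 0 and 1 lower in that comparison, where the 1 was MRPL44 and not MRPS18A without DI replicate 2. The ratio of MRPL to MRPS sums by position had group means of 1.63 (C), 1.61 (D), 1.62 (I) and 1.58 (DI). The causes of these changes were not tested. The other 210 counts and all 318 medians under these settings stayed within 1.5 times the count or 1 SD between replicates. For the members' median that SD was 0.13, larger than the main median over all members in every comparison. A median could therefore vanish or change sign and still stay within it. Library size alone turned the sign of the members' median with doxycycline, from −0.04 to 0.05 in DI vs I and from −0.07 to 0.02 averaged. The all-gene medians also moved, from −0.01 to 0.09 and from 0.00 to 0.09. Depth limits MRPS24 (1 to 12 counts) and MRPL38 (24 to 92 counts) most.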
